A study of Mus musculus with 12 samples.

Results

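The 10 genes described here code for AP-1 subunits and for the factors that share their DNA sites in T cells, namely Batf, Batf3, Irf4, Bach2, Jun, Junb, Jund, Fos, Fosb and Fosl2. They were chosen by name, as the rows of the deposited count table whose symbol equals one of these names, and each name had 1 row among the 13780 genes of the table. The table holds RNA-seq counts of 12 libraries of CD8+ T cells, 4 in each of 3 groups, from the spleens of C57BL/6J mice aged 8 to 12 weeks, all purified with positive magnetic beads. Naïve cells were frozen right after isolation, with no treatment. Media cells spent 72 h in plain culture medium with Dynabeads that carry antibodies to CD3 and CD28, and with recombinant human IL-2 at 10 U/ml. Lactate cells were treated alike except that the medium held sodium lactate at 40 mM. Plain medium, and not sodium chloride, served as the control, so lactate, sodium and osmolality cannot be told apart between these groups. By the study's methods each group holds independent mouse donors, and donor tags in the labels tie 3 media libraries to 3 lactate libraries. The tags recur among both series of library numbers described next and were read as different animals there, since each group is said to hold independent donors, and the donor pairs and donor block below rest on that reading. The labels also number the libraries, and the numbers fall into a low series of at most 9 (8 libraries: naïve, media and lactate replicates 1 and 2, naïve and media replicate 3) and a high series of 16 to 26 (4 libraries: naïve replicate 4, media replicate 4 and lactate replicates 3 and 4). What these 2 series of numbers stand for is not given in the labels.

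AP-1 is a family of dimers in which a JUN protein pairs with another JUN, a FOS or a BATF protein through a leucine zipper. Jun, Junb, Fos and Fosb are immediate early genes, whose transcripts appear quickly after T cell receptor signalling, while Jund is expressed more steadily. BATF and BATF3 lack an activation domain and bind together with a JUN protein and IRF4 at composite sites. BATF is needed for the effector program of CD8+ T cells, and BACH2 is a repressor that occupies AP-1 sites and restrains effector differentiation.

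The sequence upstream of 4 members is shown because these genes held the lowest activated levels relative to the naïve libraries of replicates 1 to 3 and, for Jun, Fos and Fosb, moved with the series of library numbers. Each stretch is 120 bases that end at the base before the RefSeq start of the gene on GRCm38.p6, read 5′ to 3′ on the strand of the gene, which is the plus strand for Fos and the minus strand for the others. The capitals mark matches to TGACG, the core of the cyclic AMP response element, to TGACATCA, the variant AP-1 site of the Jun promoter, and to TATAAA. The regions are chr12:85473770-85473889 for Fos, chr7:19310046-19310165 for Fosb, chr4:95052223-95052342 for Jun and chr8:84978749-84978868 for Junb.
Fos: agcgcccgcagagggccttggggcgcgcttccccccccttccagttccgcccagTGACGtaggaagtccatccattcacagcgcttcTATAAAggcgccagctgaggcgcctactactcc
Fosb: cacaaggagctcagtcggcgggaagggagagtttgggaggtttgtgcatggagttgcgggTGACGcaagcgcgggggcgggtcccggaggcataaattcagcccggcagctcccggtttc
Jun: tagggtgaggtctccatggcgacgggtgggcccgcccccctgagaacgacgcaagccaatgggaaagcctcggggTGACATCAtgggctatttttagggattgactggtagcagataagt
Junb: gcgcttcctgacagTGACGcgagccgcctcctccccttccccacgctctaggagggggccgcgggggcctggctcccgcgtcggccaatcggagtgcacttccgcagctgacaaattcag
All 10 members had a promoter in the RefSeq table, but its start is not always the gene start given below. The 120 bases before it lie inside the gene for Bach2 (chr4:32417315-32417434), Batf3 and Fosl2. For Jund they end at chr8:70697738, before the gene start at 70698949. For these members the lack of a match does not describe the sequence just before the gene start given below. In the 250 bases before the start, on both strands, TGACG was found in 4 of 10 members (Batf, Junb, Fos and Fosb), against 17.8% of 32851 promoters. TGACATCA was found in Jun alone, against 2.93% of promoters, and TATAAA in Irf4 and Fos, against 12.4%. Neither TGANTCA, the AP-1 consensus, nor TGACGTCA, the full cyclic AMP response element that contains TGACG, was found in a member, against 6.75% and 1.55% of promoters. These matches describe letters in a window and no binding was measured.

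Each library held between 14726904 and 21478137 counts, and all 10 members were among the 13767 genes that passed the filter on low counts. Levels within a gene are given as CPM, counts divided by the TMM-scaled library size, and levels between genes as TPM, which corrects for gene length. The summed level of 5 CD8+ T cell markers (Cd8a, Cd8b1, Cd3d, Cd3e, Cd3g) was 1579 to 3582 CPM in the naïve, 2738 to 3462 in the media and 2049 to 2609 in the lactate libraries. The naïve libraries also held transcripts of other cells, with 4 of 4 B cell markers summing to 392 to 953.8 CPM, 4 of 4 myeloid markers to 354 to 1116, 2 of 2 tested red cell markers to 42.4 to 1736, 2 of 2 NK cell markers to 3.13 to 8.00 and Cd4 at 11.2 to 27.1, while in the activated libraries these sums were at most 14.7 (B cell), 0.982 (myeloid), 0.820 (red cell), 0.717 (NK cell) and 0.990 CPM (Cd4). Ncr1 (NK cells) and Alas2 (red cells) were at 0 in 7 of the 8 activated libraries. Their part in the comparisons with naïve cells was not tested. Naïve replicate 4 stood apart, with 189.5 CPM summed over 4 heat shock genes (Hspa1a, Hspa1b, Dnajb1, Hsph1) against 6089 to 9448 in the other naïve libraries and the lowest sum of CD8+ T cell markers, so results that rest on it are given with and without it. In bulk RNA, fewer cells of a type and less RNA per cell cannot be told apart.

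In cells activated with lactate, Batf3 was the member with the smallest adjusted p against plain media, at 82.2 ± 5.64 CPM (SD, n = 4) against 17.3 ± 9.40. Batf and Jund were also higher in every lactate library than in every media library, by 1.56-fold and 1.99-fold. Fosl2 and Bach2 were lower in every lactate library, by 1.86-fold and 1.51-fold. Jun, Fos and Fosb took 2 levels within each activated group, and these followed the series of library numbers. Differences by medium within a series were smaller and are given below. Of the 10 members, 1 (Batf3) passed an adjusted p of 0.01 in edgeR's quasi-likelihood test with Benjamini-Hochberg adjustment over all 13767 genes, against a background of 25.1% of genes (13.9% higher and 11.1% lower). The lactate and media libraries did not overlap for 6 of 10 members, 4 higher and 2 lower with lactate, against 44.7% of all genes (23.2% higher and 21.5% lower).

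**Figure D1:**
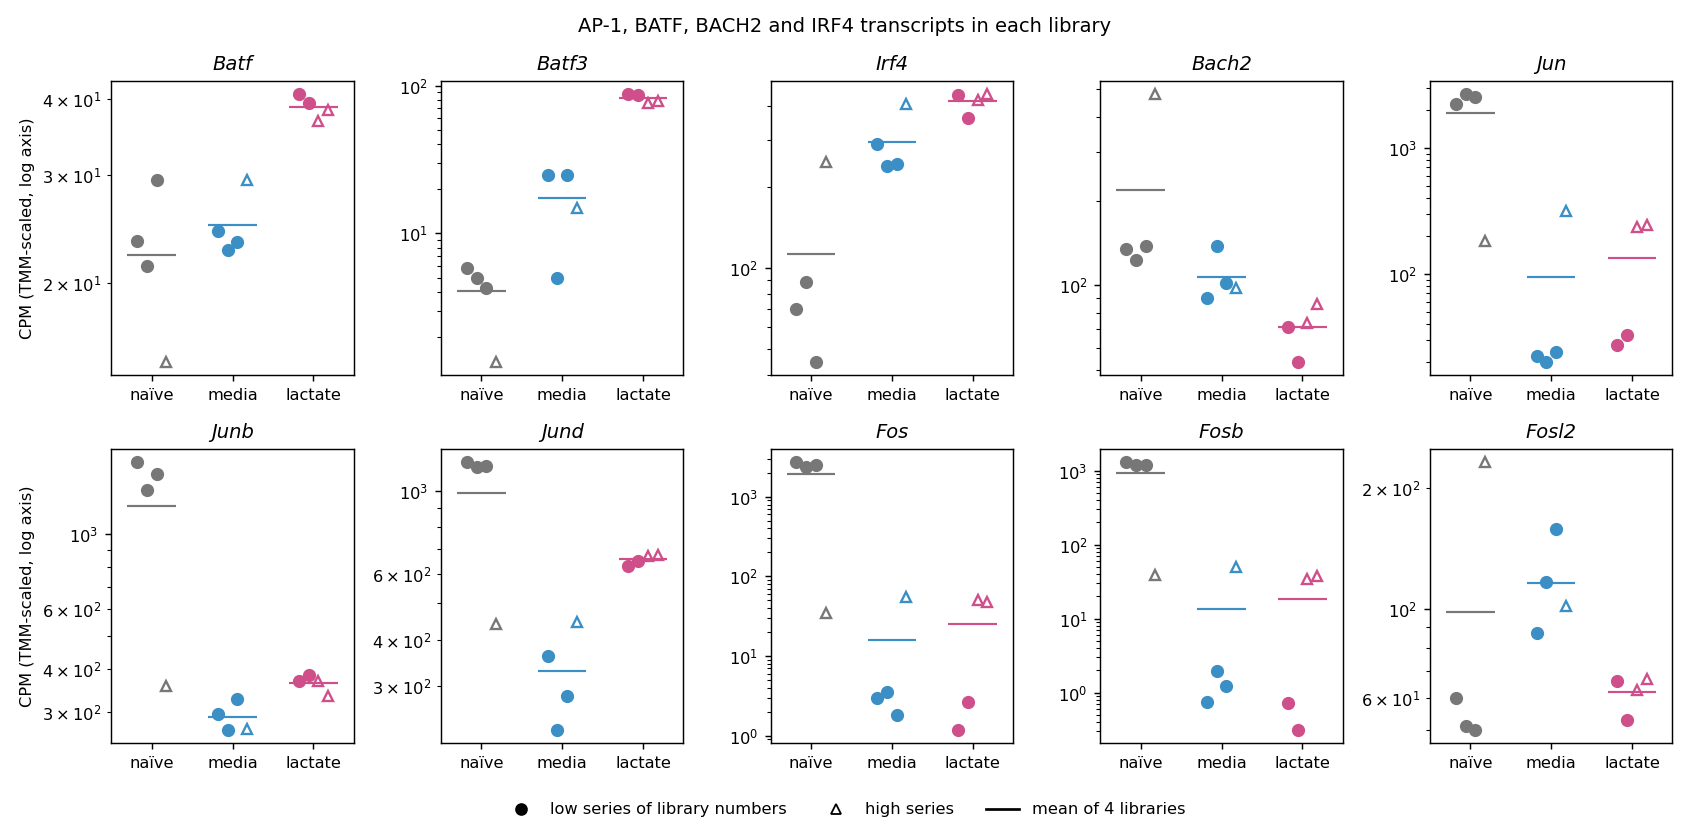
CPM of each member in the 12 libraries on a log axis, with the naïve, media and lactate groups side by side, circles for the low series of library numbers, open triangles for the high series and a line at the mean of 4 libraries. Batf3 and Jund lie in tight clusters in the lactate group, while Jun, Fos and Fosb split by series within both activated groups and naïve replicate 4 lies far from the other naïve libraries for most members.

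Batf3 (chr1:191097847-191108945, plus strand, all member positions from GENCODE M21 on GRCm38), which codes for a BATF paralogue known for its role in dendritic cells and memory T cells, measured 24.6, 5.02, 24.6 and 14.7 CPM in media replicates 1 to 4. In the lactate libraries it measured 87.2, 87.0, 76.7 and 78.1 CPM. The lowest lactate library held more than 3 times the level of the highest media library, and media replicate 2 sat among the naïve libraries, which measured 5.80, 4.99, 4.26 and 1.34 CPM. The log2 fold change of lactate over media was 2.25 ± 0.44 (SE), or 4.76-fold, with an adjusted p of 0.00168 in edgeR. In the 3 donors with both cultures the log2 difference was 1.82, 1.82 and 2.40. Batf3 varied by a coefficient of variation of 54.5% in the media group and 6.85% in the lactate group, where the median gene varied by 13.9% and 13.1%.

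Batf (chr12:85686669-85709087, plus strand), the factor that opens effector enhancers together with IRF4, measured 24.3, 22.6, 23.4 and 29.4 CPM in the media libraries. In the lactate libraries it measured 40.6, 39.4, 36.8 and 38.3 CPM, with a coefficient of variation of 4.21% that was larger than that of 6.71% of genes. The groups did not overlap, and the fold change was 0.64 ± 0.17 on the log2 scale with an adjusted p of 0.0106 in edgeR, just outside the threshold. The naïve libraries measured 23.4, 21.3, 29.4 and 14.8 CPM, a range that holds all 4 media libraries and no lactate library. Per length, Batf3 made up 64.2 to 66.1% of the summed Batf and Batf3 TPM in the lactate libraries, 16.4 to 48.2% in the media libraries and 7.38 to 17.9% in the naïve libraries, so Batf3 was the larger of the pair with lactate and the smaller in every other library.

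Irf4 (chr13:30749226-30766976, plus strand), the partner of BATF that is induced in proportion to T cell receptor signal, measured 289.6, 240.3, 243.4 and 409.6 CPM with media. With lactate it measured 441.9, 362.7, 422.3 and 443.2 CPM. The groups overlapped through media replicate 4, the library of the high series, and the log2 fold change of 0.50 ± 0.41 had an adjusted p of 0.360 in edgeR. Within the donor pairs Irf4 differed by 0.61, 0.58 and 0.11 on the log2 scale, the smallest in the pair of the high series.

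Bach2 (chr4:32238804-32586108, plus strand), the repressor of AP-1 sites, measured 90.2, 137.6, 101.9 and 98.1 CPM with media. With lactate it measured 70.9, 53.3, 73.6 and 86.0 CPM. Every lactate library lay below every media library, though the highest lactate and the lowest media value were close, and the log2 fold change was -0.59 ± 0.38 with an adjusted p of 0.245 in edgeR. The ratio of Batf to Bach2 TPM was 3.15 to 5.22 with lactate, 1.16 to 2.12 with media, and 0.219 to 1.5 in the naïve libraries. For Batf3 the ratio to Bach2 TPM was 5.65 to 10.2 with lactate and 0.227 to 1.70 with media. Both separations of lactate from media follow from those of the single genes and are no separate result. Of 2 known targets that BACH2 represses, Prdm1 (BLIMP-1) measured 29.5 to 42.4 CPM with media and 16.0 to 25.5 with lactate, and Hmox1 (heme oxygenase) 6.82 to 9.84 and 15.9 to 17.7. Over all 12 libraries neither passed the threshold, with a log2 fold change of -0.74 and an adjusted p of 0.0161 for Prdm1, and 0.98 and 0.0298 for Hmox1, in edgeR. Without naïve replicate 4 Prdm1 passed (adjusted p = 0.00715 in edgeR) and Hmox1 did not (0.0323), against 35.6% of genes. With the donor tag as a replicate block, a fit that rests on the 3 donor pairs, both passed (0.004 and 0.000996 in edgeR), against 26.3% of genes.

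Jund (chr8:70698949-70700616, plus strand), the most abundant member per length in both activated groups at 682 ± 177 TPM (SD, n = 4) with media and 1239 ± 18.9 with lactate, measured 362.2, 229.4, 283.0 and 445.0 CPM with media. With lactate it measured 627.4, 650.0, 670.1 and 674.6 CPM, the smallest coefficient of variation of any member and group, 3.29%. The groups did not overlap, and the log2 fold change was 0.99 ± 0.28 with an adjusted p of 0.0134 in edgeR. Of the exon bases of Jund, 52.6% lie within Gm11175 on the opposite strand. Gm11175 had between 18 and 144 counts a library, at most 0.689% of those of Jund, and whether strand was used in the counting is not given in the sources used here.

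Junb (chr8:84974484-84978718, minus strand), which codes for a JUN protein that pairs with BATF, measured 294.7, 265.1, 327.0 and 267.1 CPM with media. With lactate it measured 370.3, 384.2, 369.4 and 334.5 CPM. The groups did not overlap but lay close together, and the log2 fold change of 0.34 ± 0.33 had an adjusted p of 0.448 in edgeR. Of the exon bases of Junb, 7.52% overlap Prdx2 on the other strand, as do 7.28% of those of Jun with Junos and 5.4% of those of Bach2 with Bach2os. Prdx2 had between 615 and 3488 counts a library, up to 61.6% of those of Junb.

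Fosl2 (chr5:32135801-32157842, plus strand), which codes for FRA-2, the FOS member most abundant in the activated libraries of the low series, measured 87.1, 116.5, 157.9 and 101.9 CPM with media. With lactate it measured 66.3, 53.0, 63.0 and 66.9 CPM. All 4 lactate libraries lay below all 4 media libraries, and the log2 fold change of -0.89 ± 0.43 had an adjusted p of 0.120 in edgeR. The paralogue Fosl1 (FRA-1), which is no member, was among the genes that rose, from 0.836 to 1.90 CPM with media to 4.98 to 7.43 with lactate (log2 fold change 2.07 ± 0.54, adjusted p = 0.00948 in edgeR).

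For Batf, Batf3, Junb, Jund, Fosl2 and Bach2 the exact two-sided permutation test of media against lactate gave 0.0286, the smallest p that 4 libraries against 4 allow. This p follows from the lack of overlap given above, which 44.7% of all genes shared, and is no separate support. The arrangements took no account of the donor pairs or the series of library numbers. Without naïve replicate 4, which is in neither of the compared groups, the same 6 members passed the threshold in edgeR, against 35.6% of 13627 genes. The adjusted p was then 0.000918 for Batf, 0.000356 for Batf3, 0.00961 for Junb, 0.000427 for Jund, 0.000756 for Fosl2 and 0.00709 for Bach2. In the 8 activated libraries alone, with a term for the series of library numbers, these 6 members also passed, against 40% of 12460 genes. With the donor tag as a replicate block, which pairs cultures of one animal, Batf, Batf3 and Jund passed, with adjusted p values of 0.00388, 0.000192 and 0.00145 in edgeR, against 26.3% of genes. Each naïve library and each unpaired culture had its own block there. The test therefore rests on the 3 donor pairs and leans on the spread shared among genes. With the donor block and the naïve libraries kept as 1 group 0 members passed, against 7.21% of genes, and in the low series alone Batf and Jund passed, against 15.5% of 13418 genes.

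**Figure D2:**
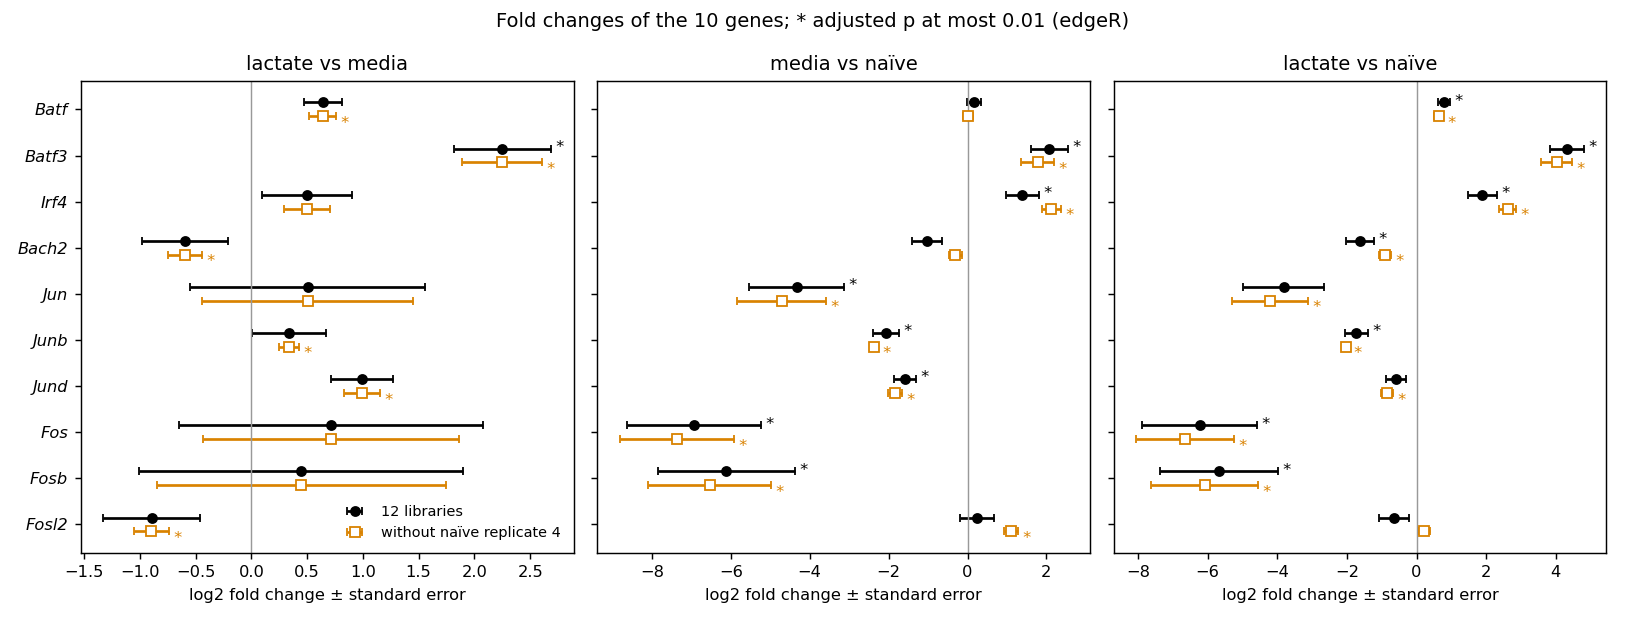
Log2 fold changes with standard errors for the 3 comparisons, from all 12 libraries (black circles) and without naïve replicate 4 (open orange squares), with a star at an adjusted p of at most 0.01 in edgeR. Without naïve replicate 4 the standard errors of lactate against media shrink for all 10 members, and 6 members carry a star where 1 did.

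Jun (chr4:95049034-95052222, minus strand), the founding subunit of AP-1, measured 22.2, 19.9 and 24.1 CPM in media replicates 1 to 3 and 313.2 CPM in media replicate 4. With lactate it measured 27.2 and 32.9 CPM in replicates 1 and 2, and 233.1 and 244.7 CPM in replicates 3 and 4. The high libraries were in both groups those of the high series. Fos (chr12:85473890-85477273, plus strand), the partner of JUN, measured 2.96, 3.49, 1.84 and 54.6 CPM with media, and 1.18, 2.62, 50.4 and 48.1 CPM with lactate, split in the same way. Fosb (chr7:19302696-19310051, minus strand), the paralogue of Fos, measured 0.740, 1.96, 1.23 and 50.3 CPM with media, and 0.717, 0.314, 34.7 and 37.4 CPM with lactate, where the lowest value stands for 6 counts. The log2 fold change of lactate over media was 0.50 ± 1.06 for Jun, 0.71 ± 1.36 for Fos and 0.44 ± 1.45 for Fosb, and none passed, with adjusted p values of 0.743, 0.717 and 0.843 in edgeR. Without media replicate 4 these log2 fold changes were 2.59, 3.19 and 3.79.

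Among the 8 activated libraries, in a model with medium and series, the high series exceeded the low by 3.35 ± 0.16 on the log2 scale for Jun, 4.48 ± 0.23 for Fos and 5.60 ± 0.27 for Fosb, each with an adjusted p of 8.219e-06 in edgeR. These 3 of 10 members passed, against 1.65% of 12460 genes. The other 7 members did not, with differences between -0.24 (Batf3) and 0.33 (Irf4). Of the other genes listed for AP-1 and its signalling, the phosphatase gene Dusp1 was 2.05 higher in the high series on the log2 scale, Irf1 2.16, Zfp36 1.84, Klf6 1.48, Atf3 1.35, Ier5 1.07, Dusp6 0.94 and Dusp5 0.56, and Mafg was 0.74 lower, all with an adjusted p of at most 0.00773. In all 205 genes passed, none of them among the 4 heat shock genes. What gave rise to the differences between the series was not tested. In the same model lactate differed from media by 0.12 for Jun, -0.33 for Fos and -0.75 for Fosb, and none passed (adjusted p = 0.532, 0.252 and 0.0437 in edgeR). Within the low series Fos and Fosb were lower with lactate than with media, by -0.53 and -1.29 on the log2 scale, and neither passed (adjusted p = 0.257 and 0.0554 in edgeR). Jun was 0.45 higher there and did not pass (adjusted p = 0.0377 in edgeR). In the high series, with 1 media library, Jun differed by -0.39. The test of whether lactate acted differently on a member in the 2 series called 0 of 13767 genes (0%) in edgeR, where 251 genes, Jun the 1 member among them, had an unadjusted p under 0.05.

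**Figure D3:**
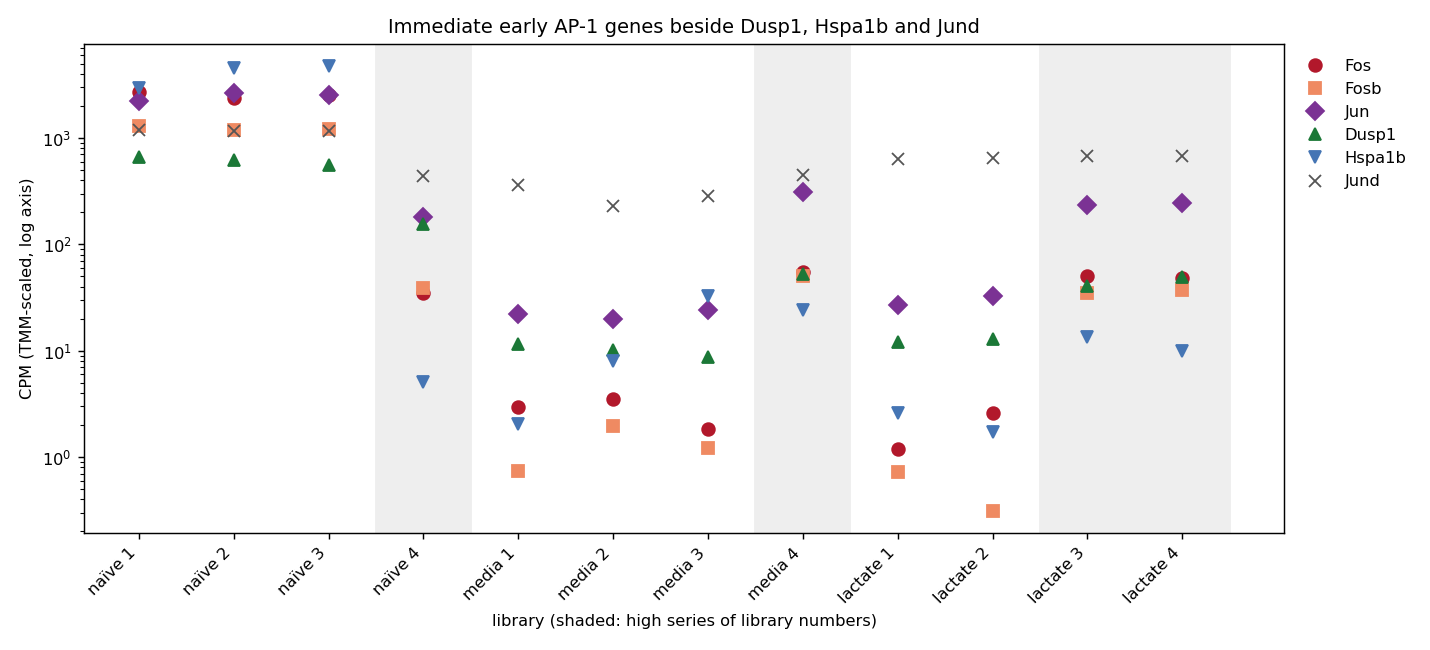
CPM on a log axis of Fos, Fosb and Jun with Dusp1, Hspa1b and Jund in each library, with the 4 libraries of the high series shaded. In the low series Fos lies between 2388 and 2713 CPM in the naïve and between 1.18 and 3.49 in the activated libraries, while in the high series it lies between 34.6 and 54.6 in all 4 libraries.

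Compared with naïve cells, media cells held more Batf3 and Irf4 and less Jun, Junb, Jund, Fos and Fosb, and these 7 of 10 members passed the threshold, against 57.5% of genes (28.5% higher and 29% lower). The naïve libraries are shared with the comparison of lactate to naïve, so the pair of comparisons is not independent. With lactate, Batf, Batf3 and Irf4 were higher and Junb, Fos, Fosb and Bach2 lower than in naïve cells, again 7 of 10 members, against 65% (33% higher and 32% lower). The media and naïve libraries did not overlap for 1 member (Junb, lower with media), against 61.2% of genes (30.7% higher and 30.5% lower). The lactate and naïve libraries did not overlap for 5 (Batf, Batf3 and Irf4 higher, Fosb and Bach2 lower), against 67.8% (35% higher and 32.8% lower). In the low series alone 7 members passed for media and 9 for lactate against naïve, with backgrounds of 58% and 60.8%. For media Batf3 then no longer passed (adjusted p = 0.0119 in edgeR) and Fosl2 did (adjusted p = 0.00136).

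Over all 12 libraries Fos, Fosb and Jun had the largest fold changes of media over naïve among the members. Fos measured 2713, 2388, 2530 and 34.6 CPM in naïve replicates 1 to 4. Fosb measured 1301, 1186, 1200 and 39.2 CPM, and Jun 2223, 2655, 2540 and 182.4 CPM. In each of the 3 genes naïve replicate 4 was far below the other naïve libraries and within the range of the activated libraries of either group or just above it. The log2 fold change of media over naïve was -6.94 ± 1.70 for Fos, -6.12 ± 1.74 for Fosb and -4.33 ± 1.2 for Jun, with adjusted p values of 0.00287, 0.00715 and 0.00634 in edgeR. With lactate Fos and Fosb were -6.23 ± 1.64 and -5.68 ± 1.69 against naïve (adjusted p = 0.00406 and 0.00863), and Jun at -3.82 ± 1.17 lay just outside the threshold (adjusted p = 0.0101). In the 8 libraries of the low series alone the differences of media from naïve were -9.91, -9.96 and -6.87. In the high series, with 1 naïve and 1 media library, Fos was 0.66, Fosb 0.36 and Jun 0.78 higher with media on the log2 scale. The difference between the series in this comparison was 10.5 ± 0.51 for Fos, 10.2 ± 0.48 for Fosb and 7.59 ± 0.26 for Jun, with adjusted p values of 1.004e-05, 1.004e-05 and 1.504e-06 in edgeR, where the lone libraries are assumed to vary like the others. In all, 7 of 10 members passed this test for media, against 3.69% of genes, and 6 of 10 for lactate against naïve, against 3.8%.

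Junb measured 1625, 1348, 1503 and 356.4 CPM in the naïve libraries, and Jund 1191, 1157, 1163 and 439.2 CPM. Replicates 1 to 3 agreed closely for both, and naïve replicate 4 lay near the media libraries. Junb fell by 2.07 ± 0.34 and Jund by 1.58 ± 0.28 on the log2 scale in media cells, with adjusted p values of 0.000153 and 0.000279 in edgeR. With lactate Junb fell by 1.73 ± 0.34 (adjusted p = 0.000474), and Jund differed by -0.59 ± 0.28 (adjusted p = 0.0687), which passed without naïve replicate 4 (-0.84 ± 0.17, adjusted p = 0.000707). In the high series, where naïve replicate 4 is the only naïve library, these falls were small or absent. There Junb differed from naïve by -0.42 with media and -0.02 with lactate, and Jund by 0.02 and 0.61.

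Irf4 measured 70.1, 88.4, 44.6 and 247.6 CPM in the naïve libraries, so that naïve replicate 4 lay within the range of the media libraries. It rose by 1.39 ± 0.41 on the log2 scale with media and by 1.89 ± 0.42 with lactate (adjusted p = 0.00947 and 0.00126 in edgeR), and without naïve replicate 4 by 2.12 ± 0.24 and 2.62 ± 0.25. Batf3 rose by 2.08 ± 0.46 with media and 4.33 ± 0.49 with lactate, the latter 20.1-fold, with adjusted p values of 0.00145 and 4.818e-06. Batf rose with lactate by 0.80 ± 0.17 (adjusted p = 0.000972), and with media differed by 0.16 ± 0.17 (adjusted p = 0.420).

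Bach2 measured 134.9, 123.6, 138.6 and 479.6 CPM in the naïve libraries, and Fosl2 60.0, 51.3, 50.1 and 231.6 CPM. In both genes naïve replicate 4 held the highest level of all 12 libraries. Bach2 fell by 1.63 ± 0.39 on the log2 scale with lactate (adjusted p = 0.00221 in edgeR) and by 0.91 ± 0.16 without naïve replicate 4 (adjusted p = 0.000275). With media it differed by -1.04 ± 0.39 (adjusted p = 0.0299) and without that library by -0.31 ± 0.16 (adjusted p = 0.103). Fosl2 differed by 0.24 ± 0.43 with media (adjusted p = 0.641), and without naïve replicate 4 was 1.10 ± 0.18 higher (adjusted p = 0.000136). With lactate it differed from naïve by -0.66 ± 0.43 (adjusted p = 0.184), a direction that turned without that library (0.20 ± 0.17, adjusted p = 0.295). Without naïve replicate 4, 8 of 10 members passed for media and 9 of 10 for lactate against naïve, with backgrounds of 61.3% and 68.5%.

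The order of the levels per length differed between the groups. In naïve libraries Fos came first at 2742 ± 1812 TPM (SD, n = 4), followed by Jund (2003 ± 713), Jun (2003 ± 1209), Junb (1775 ± 842) and Fosb (502 ± 322). Over all 4 naïve libraries Fos, Jund, Jun and Junb lay within their spread from each to the next, and Fosb was below Junb in every naïve library. In naïve replicates 1 to 3 Fos, at 3312 to 3952 TPM, lay above every value of Jun, Junb and Jund (at most 2716). In naïve replicate 4 Fos stood at 52.5 TPM, below Jund at 939. With media Jund was followed by Junb (435 ± 52.6), Irf4 (208 ± 48.2), Jun (99.3 ± 150) and Batf (61.2 ± 5.53), and Fosl2, Batf3, Bach2, Fos and Fosb stood at 41.5 TPM or less. With lactate Jund was followed by Junb (501 ± 45.3), Irf4 (269 ± 25.0), Batf3 (163 ± 18.3), Jun (129 ± 114) and Batf (87.2 ± 7.44), and Fos, Bach2, Fosl2 and Fosb stood at 33.1 TPM or less. With lactate the TPM of Jund, Junb, Irf4 and Batf3 did not overlap from each gene to the next, whereas Batf3 and Jun overlapped. With media Junb and Irf4 did not overlap, but Jund overlapped with Junb and Irf4 with Jun.

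**Figure D4:**
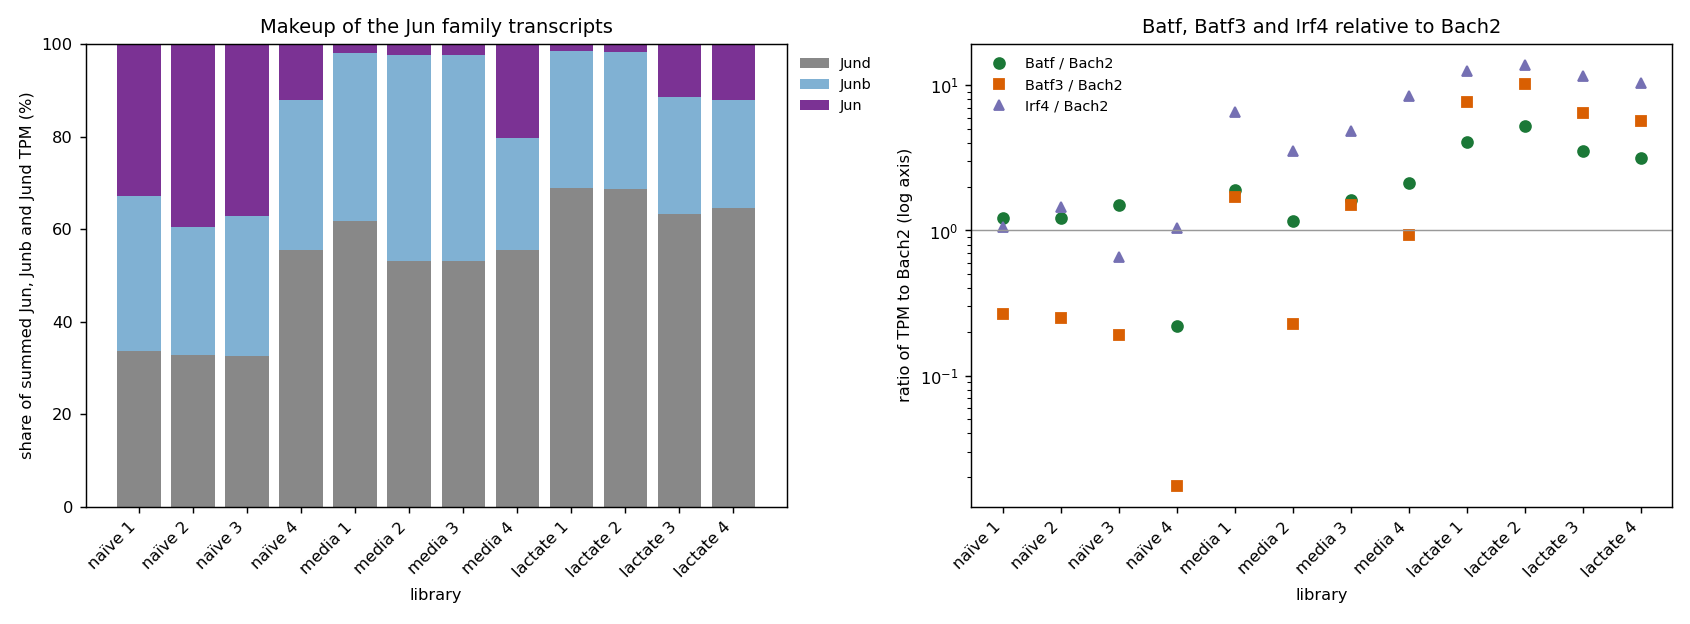
Left, shares of Jun, Junb and Jund in their summed TPM in each library, in percent. Right, ratios of Batf, Batf3 and Irf4 TPM to Bach2 TPM in each library on a log axis. Jun makes up 1.56 to 2.41% of the sum in the activated libraries of the low series and 11.5 to 20.4% in those of the high series, and all 3 ratios are above their media range in every lactate library. For Batf and Batf3 this follows from the lack of overlap of the single genes.

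The summed TPM of Jun, Junb and Jund was 1809 to 1924 in the lactate libraries and 908 to 1586 in the media libraries, and Jund made up 63.2 to 68.9% and 53.1 to 61.7% of it. In naïve replicates 1 to 3 Jun held 32.9 to 39.4%, Junb 27.7 to 33.4% and Jund 32.5 to 33.7%, and in naïve replicate 4 Jund held 55.4%. Of the summed TPM of Fos, Fosb and Fosl2, Fosl2 held 82.5 to 94.3% in the activated libraries of the low series and 19.4 to 25.2% in those of the high series.

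Within the media and the lactate group the spread between libraries split the members in 2 kinds. In the lactate group Jund (3.29%), Batf (4.21%), Junb (5.81%), Batf3 (6.85%), Irf4 (9.05%), Fosl2 (10.3%) and Bach2 (19.0%) had coefficients of variation from well below to somewhat above that of the median gene (13.1%). Jun (89.8%), Fos (107%) and Fosb (112%) lay above 97.4 to 98.0% of genes. In the media group the same 3 genes had coefficients of 153 to 181%, and the other members between 10.1% (Junb) and 54.5% (Batf3), where the median gene had 13.9%. In the naïve group all members lay above the median gene (19.8%), from 27.1% for Batf to 90.6% for Fosl2. The split did not hold there, as Irf4 (81.4%), Bach2 (79.2%) and Fosl2 varied more than Fos (65.8%), Fosb (64.1%) and Jun (61.0%).

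The other genes of the AP-1 pathway moved in both directions with lactate, as did genes at large, of which 25.1% passed (13.9% higher and 11.1% lower). Of 15 tested other AP-1 and related bZIP genes 1 rose (Fosl1) and 2 fell, the ATF/CREB genes Atf7 (-0.76) and Creb1 (-0.60 on the log2 scale), with a median of 0.05 over the list. Of 8 other interferon regulatory factors Irf8 rose (0.89) and Irf7 (-2.62) and Irf2 (-1.12) fell. Irf7, a target of interferon signalling, measured 14.6 to 34.9 CPM with media and 2.31 to 5.49 with lactate. Of 16 genes of the MAP kinase cascade, which phosphorylates JUN and the activators of Fos, Map2k3 (1.04), Hras (0.88) and Map2k2 (0.63) rose and Map2k7 (-0.51) and Mapk3 (-0.38) fell. Of 6 genes for SRF and its cofactors, which drive Fos transcription, Elk4 (-1.28), Mrtfb (-0.55) and Mrtfa (-0.42) fell. None of 8 MAP kinase phosphatases, 7 other immediate early genes, 4 heat shock genes and the 2 BACH2 targets passed in edgeR's test over all 12 libraries. Without naïve replicate 4, where 35.6% of genes passed, Ier5 (1.215) and Hsph1 (1.67) rose and Btg2 (-0.62), Nr4a1 (-0.64) and Prdm1 (-0.74) fell. The other genes of these lists did not pass then. Of the 5 CD8+ T cell markers Cd3e (-0.91), Cd3g (-0.80) and Cd3d (-0.74) fell, and Cd8a and Cd8b1 did not pass. The median over the 10 members was 0.50 and that over all tested genes -0.00158 on the log2 scale. The median of the members lay between Irf4 and Jun, and the members ranged from -0.895 (Fosl2) to 2.25 (Batf3). With the donor tag as a replicate block Jun, Fos and Fosb stood at 0.11, -0.26 and -0.53, so this median depends on how the libraries were modelled.

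By the root-mean-square difference of centred log2 CPM over the 12 libraries, computed against 10298 genes, the patterns most like Batf3 were those of Ccr4 (0.592), Fut4 (0.628) and Fhl2 (0.628), where the median gene differed by 1.95. For Jun they included Dusp1 (0.701) and Klf4 (0.752), against a median of 2.7. For Fos they were Fam43a (1.67), Slc16a5 (1.79) and Hspa1b (1.80), against 4.04, and for Bach2 Cplane1 (0.221), Rnf125 (0.222) and Relb (0.227), against 0.903. The 12 libraries share their groups and series, so these likenesses describe the same differences between libraries.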

How the data were processed

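The data are RNA-seq of mouse CD8+ T cells, 12 libraries made with a stranded mRNA kit. The authors deposited raw counts per gene in 1 table. Per the submitters' processing notes reads were demultiplexed with bcl2fastq 2.20.0.422, aligned to GRCm38 with STAR 2.7.5b and counted with featureCounts, and whether strand was used in the counting is not given in the sources used here. Groups came from the sample labels. The members and the gene lists were chosen with earlier results of these data known. A gene was kept where 3 or more libraries reached 1 CPM (13767 of 13780). Counts were scaled by TMM and tested in edgeR 4.0.16 (R 4.3.3) by the quasi-likelihood test with 1 term per group over all 12 libraries, as in the study's own choice of filter, scaling and adjusted p of at most 0.01. Log2 CPM used a prior count of 2, and TPM the gene lengths of the table, which equal the exon union of GENCODE M21 for all 10 members. Single members were also compared by exact two-sided permutation (70 arrangements).

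All members are named, and from each list up to 3 genes in each direction with the largest fold change among those called for lactate against media. The lists cover other AP-1 and related bZIP genes, other interferon regulatory factors, MAP kinase genes and phosphatases, SRF and its cofactors, BACH2 targets, other immediate early genes, heat shock genes and cell type markers. Genes outside this rule that are named beside the series of library numbers or for the fit without naïve replicate 4, and the series itself, were singled out after their values were seen. Batf2 and Hbb-bs were not analysed here, and a few other genes are not reported here. The 3 nearest patterns were sought among genes with a mean of at least 5 CPM.

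Donor tags pair 3 media with 3 lactate libraries, and the deviations of paired libraries from their group means correlated across genes at 0.374, 0.211 and 0.553. Pairs by title number that join different donor tags gave 0.297 (replicate 2) and 0.0038 (replicate 3). The first of these exceeds 1 of the donor pairs, so the correlations do not show that the tags mark cultures of the same animal. Counts per library of a member ran from 6 (Fosb) to 48131 (Fos), so counting error limits Fos and Fosb in the activated libraries of the low series most. Alternatives were limma 3.58.1, DESeq2 1.42.0, the likelihood ratio test, other scalings and filters, replicate blocks, a term for the series and leaving out each library.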

Additional observations from a re-analysis of the deposited data

Results flagged for a closer look

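In 8 of 30 combinations of member and group, 1 library lay further from the rest than Dixon's 95% critical value for 4 libraries allows, a rule by which chance picks out about 1 in 20 groups. Of these, 5 were naïve replicate 4, with 439 CPM for Jund where the nearest naïve library had 1160, 34.6 for Fos (nearest 2390), 39.2 for Fosb (nearest 1190), 232 for Fosl2 (nearest 60.0) and 480 for Bach2 (nearest 139). The other 3 were media replicate 4, with 313 CPM for Jun (nearest 24.1), 54.6 for Fos (nearest 3.49) and 50.3 for Fosb (nearest 1.96). Both libraries carry high library numbers.

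The comparison of activated with naïve cells differed between the libraries of the high and the low series of library numbers by the interaction term in edgeR, at an adjusted p of at most 0.01. For media against naïve this was so for 7 of 10 members, against 3.69% of genes, with differences (high minus low, log2) of 7.59 for Jun, 1.92 for Junb, 2.02 for Jund, 10.5 for Fos, 10.2 for Fosb, -2.35 for Fosl2 and -2.02 for Bach2. For lactate against naïve it was so for 6 of 10, against 3.8% of genes, with 6.75 for Jun, 1.96 for Junb, 1.49 for Jund, 10.9 for Fos, 11.1 for Fosb and -1.98 for Fosl2. Both comparisons use the same naïve libraries, of which naïve replicate 4 is the only 1 in the high series, so the series and this library cannot be told apart here. The high series holds 1 naïve and 1 media library, which the test assumes to vary like the others, and the values restate the distance of naïve replicate 4 given above.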

How the results depend on the processing

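Of 777 fold changes of members computed under 25 alternatives and 3 added after seeing the data (25 in all against naïve), 760 kept their direction. The 17 that turned concern Fos, Fosb, Fosl2 and Batf, none of which had passed the threshold in the comparison in question. For lactate against media Fos became -0.26 (log2) with the donor replicate block, -0.29 with that block and the naïve libraries as 1 group, -0.027 with a term for the series of library numbers, -0.33 in activated libraries with that term and -0.53 in the low series alone, and Fosb -0.53, -0.62, -0.33, -0.75 and -1.29 in the same order. Leaving out 1 library gave Fosb -0.23 (without lactate replicate 4) to 3.79, Fos 0.14 (without lactate replicate 3) to 3.19 and Jun 0.023 (without lactate replicate 4) to 2.59, each highest without media replicate 4. Against naïve, Batf with media became -0.14 in the low series alone, and Fosl2 with lactate 0.094 in the low series alone. Leaving out 1 library gave Fosl2 -0.059 (without naïve replicate 2, likewise 3) to 1.10 (without naïve replicate 4) with media and -0.96 to 0.20 (without naïve replicate 4) with lactate.

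For lactate against media, 1 member passed (Batf3). Leaving out 1 library gave 1 to 6 members and 2252 (without media replicate 2) to 4845 genes (without naïve replicate 4), or 16.4 to 35.6% of genes, against 3451 genes (25.1%). Leaving out media replicate 4 added Jund, naïve replicate 3 added Batf, and naïve replicate 4 added Batf, Junb, Jund, Fosl2 and Bach2. DESeq2 (33.1% of genes), the likelihood ratio test (30.8%), an adjusted p of 0.05 (39.7%) and the donor replicate block (26.3%) each gave 3 (Batf, Batf3, Jund), limma voom (25.3%) and a minimum of 10 counts in every library (29.8%) 2 (Batf, Batf3), the low series alone (15.5%) 2 (Batf, Jund), the 2 groups alone (36.9%) 4 (Fosl2 added) and the activated libraries with a series term (40%) 6. With the donor replicate block and the naïve libraries as 1 group 0 members and 992 genes passed, against 3614 genes when each naïve animal was its own block. An adjusted p of 0.05 gave 5461 genes and the low series alone 2077. Title numbers as a replicate block gave 1 member for lactate against media (Batf3, 23.7% of genes), 7 for media against naïve (56.7%) and 8 for lactate against naïve (64.3%). For media against naïve, leaving out 1 library gave 3 to 8 members (52 to 61.3% of genes): without media replicate 1 or 2 the calls for Irf4, Jun, Fos and Fosb were lost, without media replicate 3 or naïve replicate 1 or 3 those for Irf4, Jun and Fosb, likewise without naïve replicate 2 (where Bach2 was gained), and without media replicate 4 or a lactate library that for Irf4. For lactate against naïve the range was 5 to 9 (60.2 to 68.5%): Fosb was lost without media replicate 2, naïve replicate 1, 2 or 3 or any lactate library, and Fos also without lactate replicate 1 or 2. The causes of these shifts were not tested.

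The lower members are limited by depth: Fosb had 6 to 36 counts in the activated libraries of the low series. With 4 libraries a group and 1 naïve library in the high series, differences between the series rest on few animals.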
